A study of Mus musculus with 11 samples.

Results

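The 10 enzymes that carry cholesterol to conjugated bile acids were followed as a set among the 54232 genes counted in hepatocytes: *Cyp7a1*, *Cyp8b1*, *Cyp27a1*, *Cyp7b1*, *Akr1d1*, *Hsd3b7*, *Baat*, *Slc27a5*, *Amacr* and *Acox2*. The rule that names them is their role in the pathway, and it was set with earlier results of these data known. Of the 10 members, 9 passed edgeR's filter on low counts and were tested, and *Hsd3b7* was listed at 0 in every library.

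Hepatocytes came from adult male C57BL/6 mice whose *Xbp1* gene was deleted in the liver by Cre driven from the albumin promoter (Xbp1LKO) and from mice that carry the floxed *Xbp1* gene without Cre (Xbp1fl/fl, the control genotype). XBP1 is a transcription factor of the unfolded protein response of the endoplasmic reticulum. Mice received either chow or HFS (high fat sugar), a Western diet with sugared drinking water, for up to 6 weeks. The 11 libraries were 3 of chow-fed Xbp1fl/fl mice, 2 of chow-fed Xbp1LKO mice, and 3 of each genotype fed HFS. A chow library held 1 mouse and an HFS library a pool of 2 mice, so that HFS libraries averaged over animals. In bulk RNA, fewer cells of a type and less RNA per cell cannot be told apart.

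Bile acids are the main route by which the liver disposes of cholesterol. In the classic pathway CYP7A1 hydroxylates cholesterol in the endoplasmic reticulum, and CYP8B1 directs the product to cholic acid, while in the alternative pathway CYP27A1 of mitochondria acts first and CYP7B1 hydroxylates the resulting oxysterol. HSD3B7 and AKR1D1 then modify the sterol ring, AMACR and ACOX2 take part in shortening the side chain in peroxisomes, and SLC27A5 and BAAT activate bile acids with coenzyme A and join them to taurine or glycine. In rodents transcription of *Cyp7a1* follows feeding and the time of day, and bile acids that return to the liver repress it through FXR (*Nr1h4*) and SHP (*Nr0b2*).

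Total counts were 19191032 to 23888401 per library, and values are given as CPM, the counts scaled to the same library total after TMM scaling, by which edgeR sets the libraries to a common scale. *Xbp1* itself was lower in Xbp1LKO libraries on both diets, with a log2 fold change of -0.87 on chow and -1.26 on HFS (adjusted p = 0.018 and 0.0025, edgeR quasi-likelihood test), although counts summed over a whole gene cannot tell reads of the deleted exon from others. All 17 hepatocyte markers measured were detected in each group. Their summed level was lower in Xbp1LKO than in Xbp1fl/fl libraries, at 65650 and 94470 against 179676 to 201431 CPM on chow and at 78743 to 112536 against 150461 to 162111 CPM on HFS, and *Alb* took 1.67% to 10.9% of the counts of a library. The summed level of 11 endothelial markers was 50.2 to 125 CPM in chow-fed Xbp1fl/fl, 30.4 and 37.4 CPM in chow-fed Xbp1LKO, 96.6 to 162 CPM in HFS-fed Xbp1fl/fl and 77.3 to 125 CPM in HFS-fed Xbp1LKO libraries. In the same order of groups, the sum of 12 macrophage markers was 21.6 to 93.7, 25.4 and 36.8, 42.0 to 59.4 and 59.6 to 105 CPM. That of 11 stellate cell markers was 11.8 to 35.5, 7.38 and 8.43, 20.9 to 35.3 and 25.0 to 52.5 CPM, and that of 10 cholangiocyte markers was 48.2 to 58.4, 27.7 and 30.9, 37.1 to 78.3 and 44.1 to 46.0 CPM. The part of these cells in the results below was not tested. The second chow-fed Xbp1LKO library stood apart in the clock gene *Arntl*, at 15.7 CPM against 0.953 to 3.76 CPM in the other 10 libraries. *Arntl* was picked from a list of 16 clock genes after its values were seen. Of the 15 clock genes tested, 0 were called in any comparison by edgeR. The members' genotype changes on chow are also given without that library.

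*Slc27a5*, which activates bile acids with coenzyme A, fell in Xbp1LKO hepatocytes to 0.49 of the control level on both diets, and *Baat*, which conjugates them, fell by a smaller amount on chow. No tested enzyme that modifies the sterol or shortens its side chain passed the edgeR test between genotypes or diets. In all, 2 of the 9 members tested were lower and 0 higher in Xbp1LKO than in Xbp1fl/fl mice on chow, where 3.02% of the 13303 genes tested were called lower, 1.73% higher and 4.75% in either direction. On HFS 1 of 9 was lower and 0 higher, where 2.16% of all genes were called lower, 1.92% higher and 4.08% in either direction. Their median log2 fold changes were -0.06 on chow and -0.24 on HFS, beside 0.0024 and 0.0083 over all genes tested. Groups did not overlap for 4 of 9 members on chow (2 higher, 2 lower), beside 31.3% of all genes (15.4% higher, 15.9% lower), and for 5 of 9 on HFS (1 higher, 4 lower), beside 26.1% (13.6% higher, 12.5% lower). Beside this, the 17 hepatocyte markers had median log2 fold changes of -0.66 on chow, with 16 negative and 4 called lower, and -0.64 on HFS, with 17 negative and 3 called lower (edgeR). The part of that difference in the changes of *Slc27a5* and *Baat* was not tested. The members' estimates ran from -1.01 to 0.92 on chow and from -1.02 to 0.15 on HFS. With library totals in place of TMM the median of all genes shifted to 0.33 on chow and 0.27 on HFS, and the share of calls that were higher went from 36.4% to 89.5% on chow and from 47.1% to 86.9% on HFS, in libraries whose *Alb* share differed between genotypes. *Slc27a5* kept its call on that scale (log2 fold change -0.70 and -0.77, adjusted p = 0.022 and 0.015), *Baat* lost it (-0.17, adjusted p = 0.37), and *Cyp7b1* and *Amacr* were called higher on chow (1.15 and 0.44, adjusted p = 0.026 and 0.045, edgeR).

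**Figure D1:**
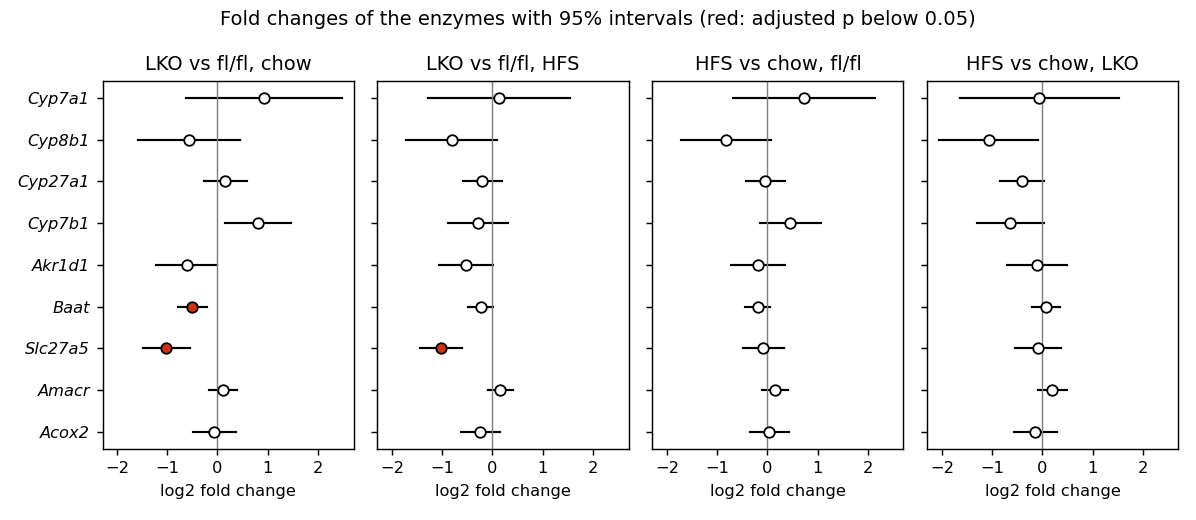
Log2 fold change of each enzyme (x axis) with its 95% interval from edgeR in the 4 comparisons, red where the adjusted p was below 0.05. *Slc27a5* is called in both genotype comparisons, at -1.01 and -1.02, and *Baat* on chow at -0.50, while the interval of *Cyp7a1* runs from -0.63 to 2.48 on chow.

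**Figure D2:**
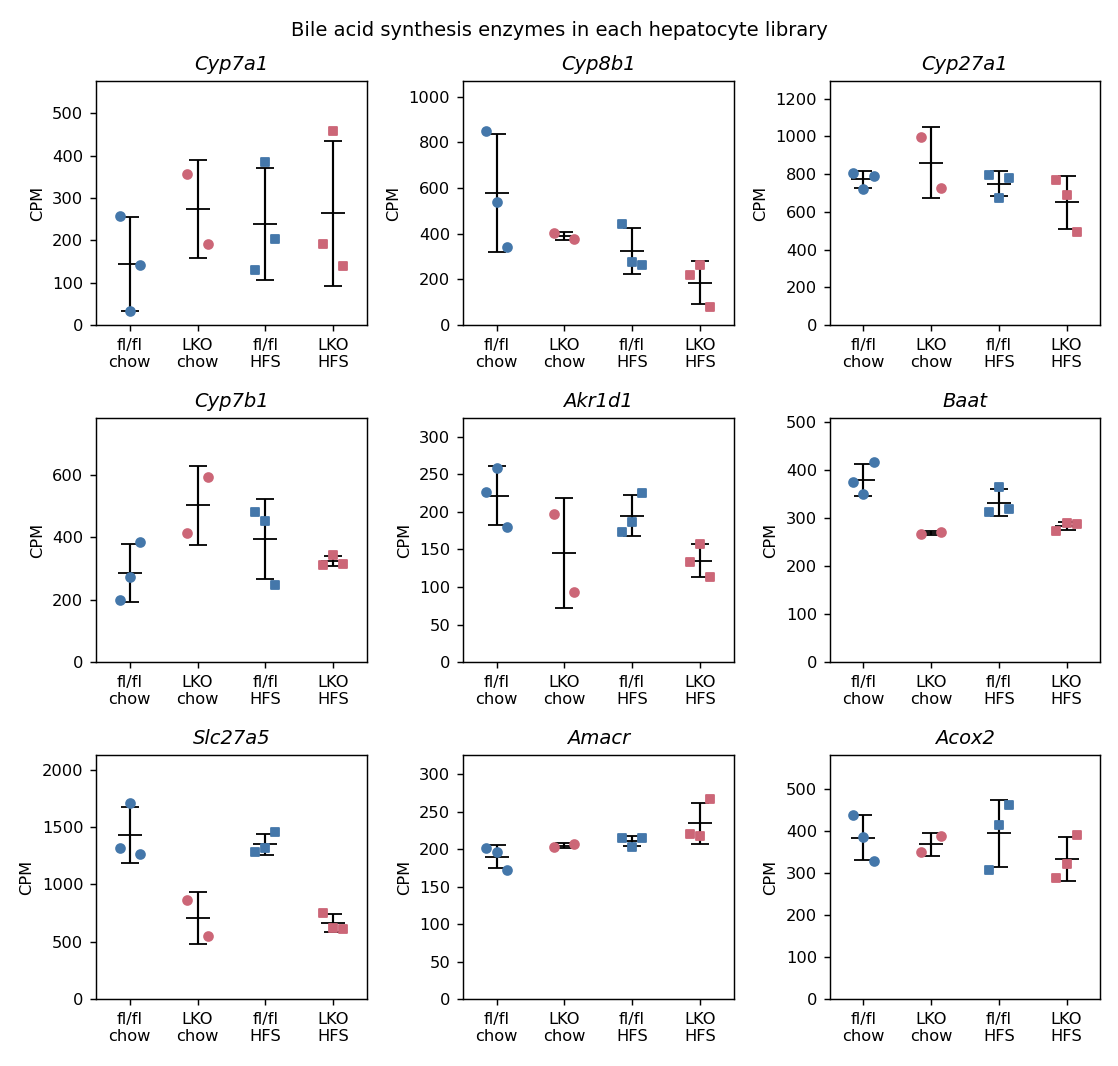
Level in CPM of the 9 enzymes with counts, 1 panel each from 0, in each library (circles chow, squares HFS; blue Xbp1fl/fl, red Xbp1LKO), with the group mean and SD as bars. For *Slc27a5* all Xbp1LKO points, 548 to 865 CPM, lie below all Xbp1fl/fl points, 1262 to 1708 CPM, while *Cyp7a1* ranges from 34.3 to 257 CPM within the chow-fed Xbp1fl/fl group.

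*Cyp7a1*, which starts the classic pathway, varied widely between libraries of the same group. It was at 257, 34.3 and 143 CPM in chow-fed Xbp1fl/fl libraries and at 356 and 192 CPM in chow-fed Xbp1LKO libraries. On HFS it was at 129, 386 and 204 CPM in Xbp1fl/fl and at 192, 459 and 139 CPM in Xbp1LKO libraries. The groups overlapped in all 4 comparisons. The log2 fold change was 0.92 between genotypes on chow (95% interval -0.63 to 2.48) and 0.14 on HFS (95% interval -1.27 to 1.55), with adjusted p = 0.53 and 0.95 (edgeR). Leaving out 1 library moved the change on chow to between 0.41, without the first Xbp1LKO library, and 1.63, without the first Xbp1fl/fl library. It was 0.46 without the second Xbp1fl/fl library and 1.30 without the second Xbp1LKO library. On HFS it turned to -0.16 without the first Xbp1fl/fl library and to -0.53 without the second Xbp1LKO library. The SD of its log2 CPM within groups was 1.05, and 99.6% of the 4278 genes with a mean of at least 30 CPM had a smaller one, with a median of 0.16. The gap from lowest to highest library was 13.4-fold.

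*Cyp8b1*, which directs synthesis to cholic acid, was lowest in the HFS-fed Xbp1LKO group, without passing the test in any comparison. It was at 851, 539 and 343 CPM in chow-fed Xbp1fl/fl libraries and at 402 and 379 CPM in chow-fed Xbp1LKO libraries. On HFS it was at 442, 275 and 261.1 CPM in Xbp1fl/fl and at 218, 261.1 and 79.1 CPM in Xbp1LKO libraries. The HFS-fed Xbp1LKO libraries lay below both groups they were compared with, the closest pair being 261.05 and 261.15 CPM. The log2 fold change was -0.81 between genotypes on HFS (SE 0.41, adjusted p = 0.35) and -1.07 between diets in Xbp1LKO mice (SE 0.45, adjusted p = 0.36, edgeR). It was -0.57 between genotypes on chow and -0.82 between diets in Xbp1fl/fl mice (adjusted p = 0.56 and 0.61, edgeR). Without the first chow-fed Xbp1fl/fl library the change was -0.18 on chow and -0.43 between diets in Xbp1fl/fl mice, and without the second chow-fed Xbp1LKO library it was -0.52 on chow. Without the third HFS-fed Xbp1LKO library it was -0.45 on HFS and -0.71 between diets in Xbp1LKO mice, and without the first HFS-fed Xbp1fl/fl library it was -0.53 on HFS. Its within-group SD of 0.65 was above that of 98.2% of the genes with a mean of at least 30 CPM. The highest library was 10.8-fold above the lowest.

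RefSeq promoters were at hand for 5 of the 10 members (GRCm38.p6). *Slc27a5* and *Baat*, the members called between genotypes, were not among them, so their promoters were not searched. A stretch of the *Cyp8b1* promoter is shown because it alone of those at hand held core letters of the element of XBP1, the factor of the deleted gene. *Cyp8b1* itself was not called between genotypes. The bases before the start of *Cyp8b1* on chr9:121916306-121916555, minus strand, are printed 5′ to 3′ with letters of 3 motifs in capitals.
Cyp8b1 upstream: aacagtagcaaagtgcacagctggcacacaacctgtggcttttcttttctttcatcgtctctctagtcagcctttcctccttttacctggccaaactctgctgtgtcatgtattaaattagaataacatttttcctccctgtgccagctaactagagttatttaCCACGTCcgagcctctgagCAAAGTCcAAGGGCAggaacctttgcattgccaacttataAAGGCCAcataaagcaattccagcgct
The first run of capitals, at bases -86 to -80 from the start, is the reverse complement of GACGTGG, the core of the element that XBP1 and ATF6 bind. The second, at -67 to -61, is CAAAGTC, part of the sequence that HNF4A recognises. The others, at -59 to -53 and -27 to -21, are matches of AAGGNCA, where N is any base. These letters are a loose form of part of the monomer site of NR5A2 (LRH-1). Searched on both strands of the 250 bases upstream of 32536 distinct promoters, GACGTGG was found in 1.99%, CAAAGTC in 3.87% and AAGGNCA in 17.5%. Of the 4 other members with a promoter, *Hsd3b7* held an AAGGNCA match at -133 to -127, and *Cyp27a1*, *Akr1d1* and *Acox2* held none of the 3. A match of letters is not a bound site.

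The log2 ratio of *Cyp8b1* to *Cyp7a1* counts averaged 2.32 ± 1.45 (SD, n = 3) in chow-fed Xbp1fl/fl, 0.58 ± 0.57 (SD, n = 2) in chow-fed Xbp1LKO, 0.55 ± 1.15 (SD, n = 3) in HFS-fed Xbp1fl/fl and -0.48 ± 0.57 (SD, n = 3) in HFS-fed Xbp1LKO libraries. On chow the genotypes did not overlap, with a difference of -1.75 (two-sided exact permutation test, p = 0.20, and 3 against 2 libraries cannot go lower). On HFS they overlapped, with a difference of -1.03 (exact permutation test, p = 0.20). Diet differences were -1.77 in Xbp1fl/fl and -1.06 in Xbp1LKO mice (exact permutation tests, p = 0.30 and 0.40). None of these could be told from the spread between libraries. On chow the difference was -0.92 without the second Xbp1fl/fl library and -2.15 without the second Xbp1LKO library, and on HFS it was -0.42 without the first and -1.55 without the second Xbp1fl/fl library. Between diets it was -0.95 in Xbp1fl/fl mice without the second chow-fed library and -0.66 in Xbp1LKO mice without the second chow-fed library.

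Of the alternative pathway, *Cyp27a1*, which also oxidises the side chain in the classic pathway, stayed within 495 to 994 CPM. It was at 806, 722 and 788 CPM in chow-fed Xbp1fl/fl, 994 and 727 CPM in chow-fed Xbp1LKO, 795, 676 and 779 CPM in HFS-fed Xbp1fl/fl, and 767, 689 and 495 CPM in HFS-fed Xbp1LKO libraries. Its groups overlapped in every comparison, and the log2 fold changes between genotypes were 0.16 on chow and -0.21 on HFS (adjusted p = 0.73 and 0.63, edgeR). Their 95% intervals were -0.28 to 0.59 and -0.59 to 0.18. On chow the change was 0.36 without the second and -0.087 without the first Xbp1LKO library.

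*Cyp7b1*, the oxysterol hydroxylase, was at 199, 273 and 385 CPM in chow-fed Xbp1fl/fl and at 412 and 591 CPM in chow-fed Xbp1LKO libraries. On HFS it was at 479.9, 453 and 247 CPM in Xbp1fl/fl and at 311, 342 and 315 CPM in Xbp1LKO libraries. The genotypes did not overlap on chow and overlapped on HFS. The log2 fold change was 0.81 on chow (SE 0.30, unadjusted p = 0.021, adjusted p = 0.16) and -0.28 on HFS (SE 0.27, adjusted p = 0.67, edgeR). The difference of the genotype effects, HFS minus chow, was -1.09 (SE 0.41, 95% interval -1.99 to -0.20, unadjusted p = 0.021, adjusted p = 0.75, edgeR), and so did not pass the test over all genes. Without the second chow-fed Xbp1LKO library the change on chow was 0.52 (adjusted p = 0.72, edgeR). The snRNA gene *Gm23686* inside *Cyp7b1* had at most 2 counts.

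*Akr1d1*, the reductase of the sterol ring, was at 227, 258 and 180.1 CPM in chow-fed Xbp1fl/fl and at 197 and 93.9 CPM in chow-fed Xbp1LKO libraries. On HFS it was at 173, 187 and 225 CPM in Xbp1fl/fl and at 134, 157 and 114 CPM in Xbp1LKO libraries. The genotypes overlapped on chow and did not on HFS. The log2 fold change was -0.61 on chow (SE 0.28, adjusted p = 0.26) and -0.53 on HFS (SE 0.24, adjusted p = 0.29, edgeR), neither past the threshold. The value on chow rested on the second Xbp1LKO library, without which it was -0.17 (adjusted p = 0.90), and it was -1.24 without the first (adjusted p = 0.021, edgeR). The pseudogene *Gm7463* within *Akr1d1* had 34 to 93 counts per library, against 2149 to 4610 for *Akr1d1*.

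*Hsd3b7* (chromosome 7, 127800604 to 127803802, plus strand) had 0 counts in all 11 libraries. Its transcribed stretch lies wholly inside the read-through gene *Gm49388* (127785608 to 127803802, same strand), which also had 0 counts throughout, and 62.0% of its exon bases are exon bases of that gene too. In its transcript *Hsd3b7*-201, 1717 of 1828 bases are shared and only 111 are not. The third exon of that transcript, wholly coding, chr7:127801461-127801616 of GRCm38, is printed because it is found letter for letter in 10 of 13 *Hsd3b7* transcripts and in both *Gm49388* transcripts.
Hsd3b7 exon: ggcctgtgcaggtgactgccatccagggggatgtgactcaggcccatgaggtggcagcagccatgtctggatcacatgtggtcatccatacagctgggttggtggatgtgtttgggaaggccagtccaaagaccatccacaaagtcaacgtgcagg
Among protein-coding genes, 18.6% of the 1606 that share some exon bases with another gene on the same strand, the class that holds *Hsd3b7*, were at 0 in every library, compared with 28.1% of the 20248 that share no base and 129 of the 129 that share every base. These classes were matched neither for expression nor for how much of a gene is shared, so the effect of sharing on counts was not tested. The other 9 members share no exon base with another gene on their strand. A count of 0 would allow at most 3 counts, or 0.156 CPM in the shallowest library, but for a gene that shares its exons this bounds reads assigned to *Hsd3b7* alone and not its transcript, so no level of *Hsd3b7* is given.

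The peroxisomal enzymes gave small estimates. *Amacr*, the racemase of branched acyl-CoA, was at 173 to 202 CPM in chow-fed Xbp1fl/fl, 203 and 207 CPM in chow-fed Xbp1LKO, 203 to 216 CPM in HFS-fed Xbp1fl/fl and 218 to 267 CPM in HFS-fed Xbp1LKO libraries. Groups did not overlap in any of the 4 comparisons, but the log2 fold changes were at most 0.20 and none passed the test (adjusted p = 0.55 to 0.80, edgeR). *Acox2*, the branched-chain acyl-CoA oxidase, was at 289 to 462 CPM over all libraries and overlapped in every comparison. Its log2 fold changes were -0.06 and -0.24 between genotypes and 0.04 and -0.14 between diets (adjusted p = 0.56 to 0.98, edgeR). Without the second chow-fed Xbp1LKO library the genotype changes on chow were 0.088 for *Amacr* and -0.14 for *Acox2*.

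*Slc27a5*, the coenzyme A synthetase of bile acids that also takes part in the uptake of fatty acids, was the member called in both genotype comparisons. In the chow-fed Xbp1fl/fl libraries it was at 1313, 1708 and 1262 CPM, and in the chow-fed Xbp1LKO libraries at 865 and 548 CPM. On HFS it was at 1279.6, 1317 and 1455 CPM in Xbp1fl/fl and at 756, 625 and 614 CPM in Xbp1LKO libraries. All 5 Xbp1LKO libraries lay below all 6 Xbp1fl/fl libraries. The log2 fold change was -1.01 on chow (SE 0.22, 95% interval -1.49 to -0.54, adjusted p = 0.023) and -1.02 on HFS (SE 0.19, 95% interval -1.44 to -0.61, adjusted p = 0.013, edgeR). The difference between these changes was -0.01 (95% interval -0.62 to 0.61, adjusted p = 0.998, edgeR). *Slc27a5* is on chromosome 7 from 12988346 to 12998192, minus strand. Without the second chow-fed Xbp1LKO library the log2 fold change on chow was -0.73 and was not called (adjusted p = 0.21, edgeR), with a lone library assumed to vary like the other groups. It was also not called without the second chow-fed Xbp1fl/fl library (-0.87, adjusted p = 0.071), and on HFS without the third Xbp1fl/fl library (-0.97, adjusted p = 0.056) or the second or the third Xbp1LKO library (-0.98 and -0.97, adjusted p = 0.074 and 0.056, edgeR). With only the chow groups in the fit it was -1.02 and not called (adjusted p = 0.13, edgeR), while over all alternatives it was called in 10 of 13 on chow, with adjusted p from 6.9e-05 to 0.21, and in 11 of 14 on HFS, with adjusted p from 3.9e-06 to 0.074 (edgeR and DESeq2).

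*Baat*, whose enzyme joins the activated bile acid to taurine or glycine, was at 374, 348 and 415 CPM in chow-fed Xbp1fl/fl and at 266 and 271 CPM in chow-fed Xbp1LKO libraries. On HFS it was at 312, 364 and 319 CPM in Xbp1fl/fl and at 273, 289 and 286 CPM in Xbp1LKO libraries. The genotypes did not overlap on either diet. The log2 fold change of -0.50 on chow passed the test by a small margin (SE 0.13, adjusted p = 0.049), and that of -0.23 on HFS did not (SE 0.11, adjusted p = 0.33, edgeR). The difference between them was 0.27 (95% interval -0.10 to 0.64, adjusted p = 0.86, edgeR). The call on chow was lost whichever of the 5 chow libraries was left out, with log2 fold changes from -0.56 to -0.43 and adjusted p from 0.069 to 0.25 (edgeR), and without the second Xbp1LKO library the change was -0.51 (adjusted p = 0.25, edgeR). Of 13 alternatives it was called in 3, with adjusted p from 0.00065 by DESeq2 to 0.37 by edgeR on library totals.

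The ratio of *Baat* to *Slc27a5* counts within a library does not depend on scaling between libraries. On a log2 scale it averaged -2.03 ± 0.17 (SD, n = 3) in HFS-fed Xbp1fl/fl and -1.23 ± 0.21 (SD, n = 3) in HFS-fed Xbp1LKO libraries. Every HFS-fed Xbp1LKO library was above every Xbp1fl/fl library, by a mean difference of 0.80 (exact permutation test, two-sided, p = 0.10, and 3 against 3 libraries cannot go lower). On chow it averaged -1.90 ± 0.35 (SD, n = 3) and -1.36 ± 0.48 (SD, n = 2), and the groups overlapped (exact permutation test, p = 0.40). That difference, 0.54, was 0.20 without the second and 0.89 without the first Xbp1LKO library, and 0.35 without the second Xbp1fl/fl library. Across 16 such tests of 4 ratios, the others being *Cyp8b1*, *Cyp7b1* and *Cyp27a1* over *Cyp7a1*, the lowest Benjamini-Hochberg adjusted p was 0.91 (exact permutation tests), and the ratio of *Akr1d1* to *Hsd3b7* could not be formed.

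**Figure D3:**
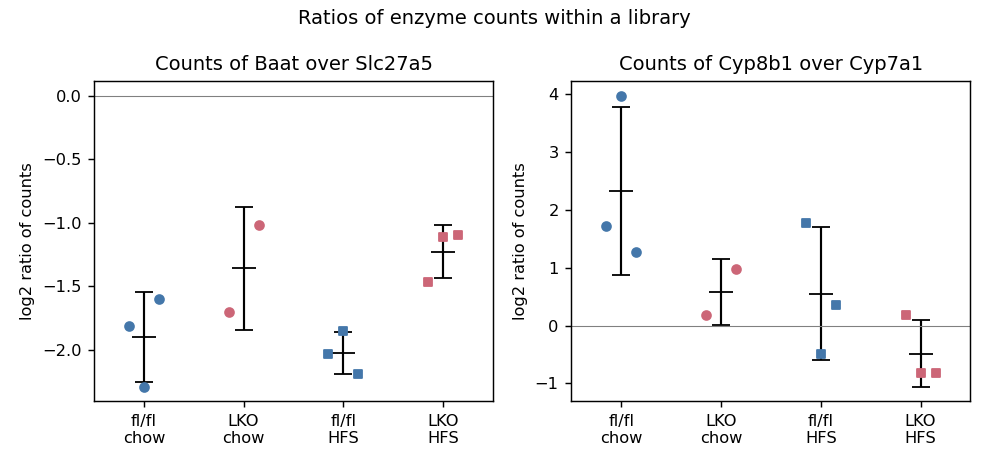
Log2 ratio of raw counts within each library for *Baat* over *Slc27a5* (left) and *Cyp8b1* over *Cyp7a1* (right), by group, with mean and SD as bars. On HFS the *Baat* ratio is higher in every Xbp1LKO library, with means of -1.23 and -2.03, while the *Cyp8b1* ratio ranges from -0.82 to 3.97 over all libraries.

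Between diets 0 of the 9 members were called in Xbp1fl/fl mice and 0 in Xbp1LKO mice by edgeR, where 0.428% and 0.0601% of all genes were called. By unadjusted p below 0.05 (edgeR) the counts were 0 and 1 (*Cyp8b1*), beside 1190 and 1683 of the 13303 genes tested. DESeq2 called 0 and 0 members. Groups did not overlap for 1 member (*Amacr*, higher on HFS) in Xbp1fl/fl mice, beside 13.7% of all genes (6.33% higher, 7.34% lower). In Xbp1LKO mice they did not overlap for 4 (*Amacr* and *Baat* higher on HFS, *Cyp8b1* and *Cyp7b1* lower), beside 31.1% (16.7% higher, 14.4% lower). For the interaction of genotype and diet 0 members were called, and 0% of all genes, with 1 member (*Cyp7b1*) and 816 of 13303 genes at an unadjusted p below 0.05 by edgeR. DESeq2 called 0 members and 29 genes.

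Levels between genes were compared as CPM per kilobase of exon. In chow-fed Xbp1fl/fl libraries *Slc27a5* was highest at 586 ± 100.1 CPM per kb (SD, n = 3), with every library above all those of *Cyp27a1* at 355 ± 20.5. *Cyp27a1*, *Cyp8b1* (296 ± 131) and *Baat* (195 ± 17.3) followed, *Cyp27a1* and *Cyp8b1* overlapping and *Cyp8b1* and *Baat* overlapping. Below every *Baat* library came *Cyp7b1* (132 ± 43.2), *Acox2* (104 ± 14.6), *Akr1d1* (76.6 ± 13.6) and *Amacr* (73.1 ± 5.92), each overlapping the next, and *Cyp7a1* was lowest at 34.6 ± 26.7 CPM per kb, with no library as high as *Amacr*. In both Xbp1LKO groups *Cyp27a1* came first and *Slc27a5* second, at 396 ± 87.0 and 289.9 ± 91.8 CPM per kb on chow (SD, n = 2) and 299 ± 64.5 and 273 ± 32.4 on HFS (SD, n = 3), with overlapping ranges. *Cyp8b1* was at 200.2 ± 8.61 CPM per kb in chow-fed Xbp1LKO, 167 ± 51.8 in HFS-fed Xbp1fl/fl and 95.3 ± 48.7 in HFS-fed Xbp1LKO libraries. In HFS-fed Xbp1LKO libraries *Cyp8b1*, *Amacr* (90.2 ± 10.5) and *Acox2* (90.1 ± 13.9) could not be placed in order. The summed CPM of the members was 4019 to 4667 in chow-fed Xbp1fl/fl, 3396 and 4044 in chow-fed Xbp1LKO, 4133 to 4274 in HFS-fed Xbp1fl/fl and 2699 to 3362 in HFS-fed Xbp1LKO libraries. *Slc27a5* made up 32.6% ± 5.16 of the members' counts in chow-fed Xbp1fl/fl and 18.8% ± 3.71 in chow-fed Xbp1LKO libraries, and 32.2% ± 2.33 and 21.7% ± 2.79 on HFS.

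**Figure D4:**
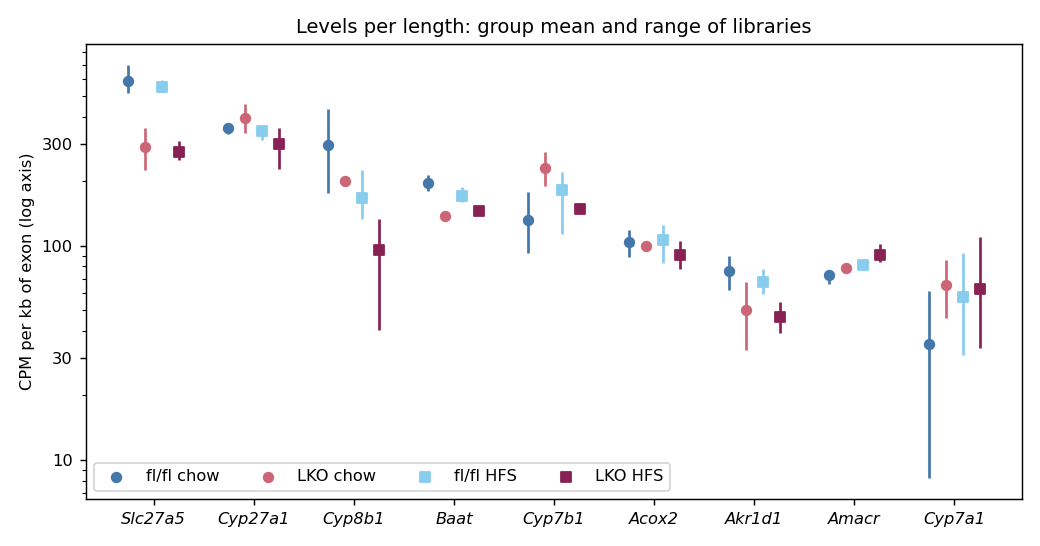
Level of each enzyme per kilobase of exon on a log axis, as group means (points) with the range of the libraries (lines), ordered by the mean in chow-fed Xbp1fl/fl libraries. *Slc27a5* leads in both Xbp1fl/fl groups, at 586 and 554 CPM per kb, and lies below *Cyp27a1* in both Xbp1LKO groups, at 289.9 and 273.

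Other genes of the pathway, from a list of 24, were called in 1 case. Of 22 tested, 0 were called between genotypes on chow by edgeR. At an unadjusted p below 0.05 there were 6 on chow, beside 2561 of all 13303 genes tested. On HFS 1 was called higher, *Akr1c14*, a hydroxysteroid dehydrogenase of the aldo-keto reductase family. *Akr1c14* was at 592, 438 and 488 CPM in HFS-fed Xbp1fl/fl and at 701, 889 and 1049.7 CPM in HFS-fed Xbp1LKO libraries (log2 fold change 0.80, SE 0.20, adjusted p = 0.049, edgeR). The median log2 fold change of the list was -0.03 on chow and 0.08 on HFS. On library totals 7 of the 22 were called higher on chow and 6 on HFS. On that scale 89.5% and 86.9% of all genes called on chow and HFS were higher. DESeq2 called 0 on chow, and 4 higher and 1 lower on HFS. Of 16 peroxisome biogenesis genes 0 were called between genotypes on chow by edgeR, and DESeq2 called 1 lower. At an unadjusted p below 0.05 by edgeR there were 4 on chow, beside the same 2561 of 13303 genes. On HFS 1 was called, *Pex11g*, which was lower in Xbp1LKO mice on HFS (log2 fold change -0.45, SE 0.10, adjusted p = 0.029, edgeR).

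Of 31 regulators tested, among them *Nr1h4*, *Nr0b2*, *Nr5a2*, *Hnf4a* and *Fgfr4*, 0 were called in any comparison by edgeR. At an unadjusted p below 0.05 by edgeR there were 4 and 2 between genotypes on chow and HFS, beside 2561 and 2322 of all 13303 genes tested. Between diets there were 2 and 4 in Xbp1fl/fl and Xbp1LKO mice, beside 1190 and 1683 genes. For the interaction there were 3, beside 816 genes. DESeq2 called 1 lower between genotypes on chow and 1 higher between diets in Xbp1fl/fl mice. On library totals 6 were called higher between genotypes on chow. On that scale 89.5% of all genes called on chow were higher, and the median log2 fold change of all genes was 0.33. *Nr0b2*, which encodes the repressor SHP, was at 14.7, 27.5 and 21.3 CPM in chow-fed and 60.2, 35.3 and 39.8 CPM in HFS-fed Xbp1fl/fl libraries. In Xbp1LKO libraries it was at 8.66 and 24.7 CPM on chow and 34.9, 37.8 and 46.0 CPM on HFS. The diets did not overlap in either genotype, with log2 fold changes of 1.09 and 1.25 and unadjusted p = 0.0083 and 0.0086, but the adjusted p was 0.32 and 0.25 (edgeR). It was named after its values were seen.

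Transporters of bile acids and sterols numbered 14 tested. *Abcc4*, which exports bile acids to blood, was higher in chow-fed Xbp1LKO mice at 4.10 and 11.5 CPM against 0.398 to 1.16 CPM in Xbp1fl/fl mice (log2 fold change 3.42, SE 0.87, adjusted p = 0.047, edgeR). On HFS the change was 2.73 and was not called (adjusted p = 0.079, edgeR), with 1.10, 4.83 and 14.6 CPM in Xbp1LKO and 0.662 to 1.22 CPM in Xbp1fl/fl libraries. Without the second chow-fed Xbp1LKO library 0 transporters were called on chow by edgeR, with 2 at an unadjusted p below 0.05. *Abcg5* and *Abcg8*, which together secrete cholesterol into bile, were higher on HFS than on chow in Xbp1fl/fl mice (log2 fold change 1.34 and 1.22, both adjusted p = 0.049, edgeR). *Abcg8* was at 368, 413 and 551 CPM in HFS-fed Xbp1fl/fl and at 204, 212 and 200.1 CPM in HFS-fed Xbp1LKO libraries, a log2 fold change of -1.11 (SE 0.23, adjusted p = 0.021, edgeR).

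Hepatocytes around the central vein and around the portal vein use different enzymes, and *Cyp7a1* and *Cyp27a1* are counted among the pericentral genes. Of the 15 pericentral genes, these members included, 8 were higher and 0 lower in Xbp1LKO mice on chow, and 7 and 0 on HFS, and neither *Cyp7a1* nor *Cyp27a1* was among those called. *Glul*, the glutamine synthetase of the cells next to the central vein, was at 183 to 389.7 CPM in chow-fed Xbp1fl/fl and at 1799.7 and 2956 CPM in chow-fed Xbp1LKO libraries (log2 fold change 3.13, adjusted p = 0.0013, edgeR). The others with the smallest p on chow were *Rhbg* (3.88), *Slc1a2* (2.83) and *Lgr5* (2.80). Not every pericentral gene rose, as 13 log2 fold changes were positive and 2 negative on chow, and 11 positive and 4 negative on HFS. Of 13 periportal genes 9 were lower and 0 higher on chow, and 5 and 0 on HFS, among them *Hal*, a histidine-degrading enzyme, at 379.9 to 654 CPM in chow-fed Xbp1fl/fl and 39.2 and 123 CPM in chow-fed Xbp1LKO libraries (log2 fold change -2.75, adjusted p = 0.011, edgeR). On library totals 10 pericentral genes were higher and 9 periportal genes lower on chow, where 89.5% of all genes called were higher. Without the second chow-fed Xbp1LKO library 6 pericentral genes were higher and 0 periportal genes were called on chow by edgeR, although all 13 had a negative log2 fold change and 9 an unadjusted p below 0.05. The part of these lists in the change of *Slc27a5* or *Baat* was not tested.

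**Figure D5:**
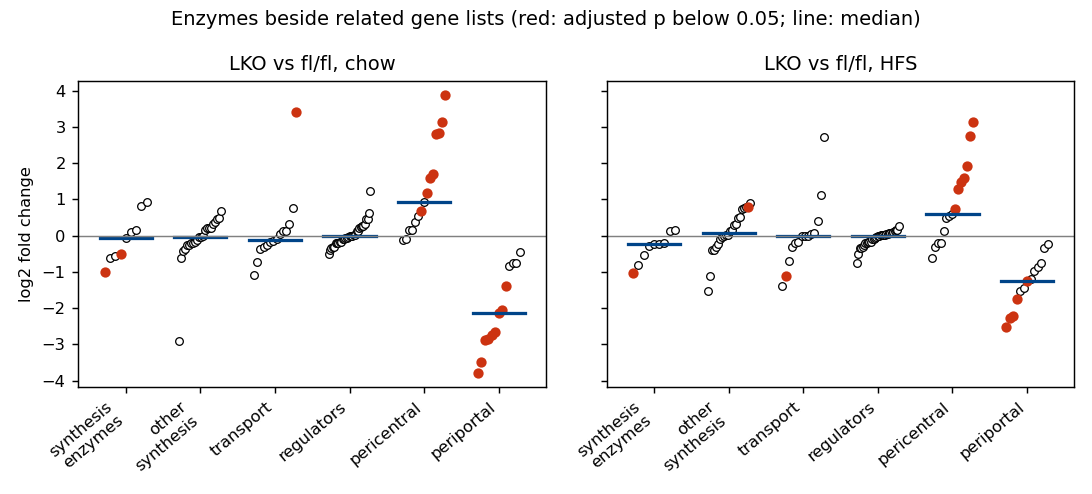
Log2 fold change between genotypes on chow (left) and HFS (right) for each tested gene of 6 lists, red where the adjusted p was below 0.05, with the median of each list as a line. The enzymes of bile acid synthesis have medians of -0.06 and -0.24, beside 0.92 and 0.60 for pericentral and -2.14 and -1.26 for periportal genes.

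Across the 11 libraries the genes whose log2 CPM followed *Slc27a5* most closely were *Hgfac*, *Amdhd1* and *Pgrmc2*, with Pearson's r of 0.987, 0.987 and 0.977. Those closest to *Cyp8b1* were *Elf2*, *P2ry2* and *Slc8b1* (0.931, 0.905 and 0.884), and those closest to *Cyp7a1* were *Gm26881*, *Snx11* and *Cdnf* (0.894, 0.867 and 0.863), of which *Gm26881* and *Cdnf* averaged below 1 CPM. Among members, *Slc27a5* followed *Akr1d1* (0.879) and *Baat* (0.748), and *Cyp8b1* followed *Cyp27a1* (0.719). The libraries share genotype and diet, so these values carry the group differences as well as those between mice.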

How the data were processed

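RNA of Percoll-purified hepatocytes was sequenced as single-end reads. The deposited values are unnormalized counts, in whole numbers, for each Ensembl gene. The paper names kallisto and tximport, while the submitters' processing notes name cutadapt 1.13, STAR, HTSeq 0.6.1p1 and DESeq2 on mm10, and the files do not say which made them. Symbols, positions and lengths came from GENCODE M21 (54165 of 54232 identifiers matched). edgeR 4.0.16 in R 4.3.3 gave TMM factors and CPM, removed low genes (filterByExpr, minimum count 10) and fitted the 4 groups to all 11 libraries, with quasi-likelihood tests, Benjamini-Hochberg adjustment over 13303 genes and a threshold of 0.05. Library totals were 19191032 to 23888401 counts. Ratios used counts plus 0.5. All 10 members were named, and of other lists at most 4 genes per comparison that passed the test, averaged 1 CPM or more and had groups that did not overlap. *Nr0b2* and *Arntl* were named outside this rule, after their values were seen. For correlations, 2 was added as edgeR's prior count before taking log2 CPM. Members and lists were chosen with earlier results of these data known. Alternatives were DESeq2 1.42.0, RLE factors, replicate blocks, other filters, library totals, fits of the compared groups alone and leaving out each library. The code was tested on simulated counts in which every gene had the same dispersion (spread between libraries) and only HFS-fed Xbp1LKO libraries held changed genes. Genes as variable as *Cyp7a1* were not simulated.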

Additional observations from a re-analysis of the deposited data

How the results depend on the processing

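Members called between genotypes on chow were 2, and 4 with no filter on low counts, 0 with only the groups compared and 1 with the replicate block, by either numbering. Leaving out 1 library at a time gave 0 to 2 on chow and 0 to 1 on HFS. With no filter there were 3 on HFS, 2 between diets in Xbp1fl/fl, 2 in Xbp1LKO mice and 1 for the interaction (*Cyp7b1*). Without a filter *Slc27a5* was still called on both diets and *Baat* was not, and the others called were *Cyp7a1*, *Cyp7b1* and *Akr1d1* on chow, *Cyp8b1* and *Akr1d1* on HFS, *Cyp7a1* and *Cyp8b1* between diets in Xbp1fl/fl, and *Cyp8b1* and *Cyp7b1* in Xbp1LKO mice; the cause was not tested. Over all genes, calls were 632 on chow, 543 on HFS, 57 and 8 between diets and 0 for the interaction, with DESeq2 1115, 981, 177, 208 and 29, with no filter 1507, 1438, 499, 722 and 269, and on library totals 3000 on chow and 1483 on HFS. On chow, leaving out the second Xbp1LKO library left 69 calls, and with only the groups compared there were 233 on chow and 0 between diets in Xbp1LKO mice.

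Same-numbered libraries were different animals, and their deviations from group means correlated at -0.20 to 0.25, so the numbers were not taken to pair them. With the replicate block *Baat* was not called on chow (adjusted p = 0.12, 0.11 by the file names' numbers) and *Cyp7a1* turned to 0.051 between diets in Xbp1LKO mice, where 19 and 53 genes were called by the titles' and the file names' numbers. The block changed no other call among the members.

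Estimates not called changed sign as follows. On library totals *Acox2* was 0.27 on chow, and *Cyp27a1*, *Baat* and *Acox2* were 0.047, 0.030 and 0.026 on HFS. Leaving out single libraries of the groups compared, genotype changes ran from -0.16 to 0.042 for *Acox2* and -0.087 to 0.36 for *Cyp27a1* on chow, and from -0.53 to 0.66 for *Cyp7a1* on HFS. Diet changes ran from -0.16 to 0.069 for *Slc27a5*, -0.093 to 0.19 for *Acox2* and -0.089 to 0.027 for *Cyp27a1* in Xbp1fl/fl mice, and from -0.72 to 0.45 for *Cyp7a1*, -0.53 to 0.52 for *Akr1d1* and -0.37 to 0.27 for *Slc27a5* in Xbp1LKO mice. *Cyp7a1* kept its sign between diets in Xbp1fl/fl mice, at 0.20 to 1.44. With the longest transcript as length *Acox2* averaged 127 in place of 99.9 CPM per kb. With 3 libraries against 3, no exact permutation test could go below p = 0.10, and with 3 against 2 none could go below p = 0.20.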
